A study of Mus musculus with 45 samples.

Results

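The genes described here act at the G1 to S step of the cell cycle: the D-type cyclins Ccnd1, Ccnd2 and Ccnd3, the E-type cyclins Ccne1 and Ccne2, their partner kinases Cdk4, Cdk6 and Cdk2, and the substrate Rb1. Gm43126, a noncoding gene on the strand opposite Ccnd2, was included because its exons overlap that gene. They were chosen by name and make up 10 of the 23575 genes in the deposited gene table, and 376 of the 276608 transcripts in the deposited transcript table carry their names. Mouse neural progenitors were reprogrammed to induced pluripotent stem cells and their RNA was read as long Nanopore reads in 45 libraries. Of these, 22 were read on R9 flow cells from poly(A)-selected RNA turned into cDNA without amplification, and 23 on R10 flow cells from total RNA with PCR of the cDNA.

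The source of the progenitors was line O4G, R1 embryonic stem cells with a GFP reporter of Oct4. The genotypes were wild type, OKMS-Luciferase-AS or OKS-Luciferase-AS, of which OKMS and OKS are stably transfected lines whose reprogramming factors are switched on by doxycycline and whose names differ by the M of Myc. The labels do not say what the luciferase element does or whether a line is 1 clone. Uninduced progenitors in their own medium, with EGF and FGF-2, gave 4 R9 libraries (2 wild type, 1 OKMS, 1 OKS) and 4 R10 libraries of the same makeup. OKMS and OKS cells induced with doxycycline in serum medium with LIF (FBS-LIF) gave 1 R9 library per system at each of days 2, 4, 6, 10, 14 and 20. In R10 they gave OKMS libraries at days 2, 4, 6, 10 and 18 and OKS libraries at days 2, 6 and 18. Wild-type progenitors held for 2 days in the same FBS-LIF medium with doxycycline, the medium control, gave 1 R9 and 2 R10 libraries. Some cells were moved to 2i-LIF, which has no serum and adds inhibitors of GSK3 and MEK to LIF. They gave R9 libraries at day 14 (OKMS) and day 20 (OKMS and OKS) and R10 libraries at day 18 (OKMS and OKS). The move was made at day 6 in R9, and its day is not given for R10. In 2i-LIF, wild-type embryonic stem cells were sampled as 2 R9 libraries (O4G and R1) and 7 R10 libraries (2 of O4G, 2 of R1-Clone3 and 3 of R1). The labels do not state that replicates came from separate cultures, so p-values measure the spread between these libraries, which may be technical.

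In a dividing cell, growth signals raise the D-type cyclins, which bind Cdk4 or Cdk6 and phosphorylate the retinoblastoma protein made by Rb1. Phosphorylation frees E2F transcription factors, which switch on S-phase genes and the E-type cyclins, and these bind Cdk2 and carry the cell into S phase. Mouse embryonic stem cells are known for a short G1 phase with high cyclin E and Cdk2 activity, whereas neural progenitors depend on D-type cyclins, Ccnd2 among them.

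The R9 libraries held 448250 to 1391635 reads and the R10 libraries 567129 to 4245818. The labelled cell types matched their markers: the 5 stem cell markers (Pou5f1, Nanog, Zfp42, Esrrb, Dppa5a) summed to 14.9 to 26.3 CPM (reads scaled to the total of the library) in R10 progenitors and 9887 to 12654 CPM in R10 stem cells. The 5 neural progenitor markers summed to 3911 to 5093 CPM in R10 progenitors and 4.93 to 37.3 CPM in R10 stem cells, although Sox1 was at 0 in the progenitors. By their labels the R10 libraries fell into 2 sets. The labels give a library name to 10 of them, the 4 of day 18 and 6 of the 7 stem cell libraries (called numbered), and none to the other 13, which are the progenitors, the FBS-LIF cells up to day 10 and 1 stem cell library of line R1 whose label carries no n number (called unnumbered below). The share of reads on mitochondrial genes was 1.81 to 2.35% in the numbered stem cell libraries and 1.56 to 2.04% at day 18, beside 0.124% in the unnumbered R1 library, 0.153 to 1.12% in the progenitors and 0.165 to 1.64% in the FBS-LIF cells up to day 10. Transcripts that match only part of an annotated splice chain took 14.6 to 15.6% of the TPM (the same scaling per transcript length) in the numbered stem cell libraries and 16.4 to 20.3% at day 18, beside 10.5%, 7.95 to 9.33% and 7.84 to 12.9% in the other 3 groups. In R10, the set and the cell type therefore cannot be told apart between numbered stem cells and progenitors, nor between day 18 and earlier days, and the unnumbered R1 library is the 1 stem cell library in the set of the progenitors. Within that set the mitochondrial share also followed genotype. Wild-type progenitors were at 0.153 and 0.273% and factor-carrying ones at 1.08 and 1.12%. Wild-type cells at day 2 were at 0.165 and 0.319%, and factor-carrying cells up to day 10 at 0.730 to 1.64%. The unnumbered R1 library was nearest to the wild-type libraries in this share. Gene differences of the members between R10 stem cells and progenitors are given with all 7 libraries and, after them, without the unnumbered R1 library. Levels, transcript values, list genes and other comparisons include that library unless it is named.

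Because the factor systems differ by Myc, whose protein binds the DNA word CACGTG (the E-box) as background knowledge, the 250 bases before the RefSeq start of each member were searched for that word, which reads the same on both strands. RefSeq promoter windows (build GRCm38.p6) were matched for 5 of the 10 members in 6 windows: Ccnd3 with 2 windows, Ccne1, Cdk2, Cdk4 and Cdk6. The word stood in the windows of Cdk4 and Cdk6 and not in the other 4. Both sequences are shown 5′ to 3′ on the plus strand, with CACGTG in capitals. The Cdk4 window (chr10:127063285-127063534) holds it at 4 places, which begin 172, 118, 98 and 11 bases before the start, and the Cdk6 window (chr5:3343643-3343892) holds it once, 220 bases before the start. The RefSeq start of Cdk6 lies inside the longer GENCODE M21 span of the gene given below.
Cdk4: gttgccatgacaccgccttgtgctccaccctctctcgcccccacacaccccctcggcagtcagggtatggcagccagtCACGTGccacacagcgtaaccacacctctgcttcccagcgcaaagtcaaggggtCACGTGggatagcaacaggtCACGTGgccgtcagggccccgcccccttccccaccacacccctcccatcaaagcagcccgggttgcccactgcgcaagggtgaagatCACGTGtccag
Cdk6: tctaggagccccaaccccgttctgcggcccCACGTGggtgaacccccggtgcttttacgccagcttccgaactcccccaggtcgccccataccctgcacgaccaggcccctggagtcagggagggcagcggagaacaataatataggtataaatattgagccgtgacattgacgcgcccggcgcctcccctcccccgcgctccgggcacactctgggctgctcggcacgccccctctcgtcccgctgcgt
Of all 32851 windows of this length, 1978 (6.02%) held the word at least once and 7 (0.0213%) at least 4 times. A match describes the letters and does not show a bound site.

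The first question was how the G1 genes differ between stem cells and progenitors. In R10 limma, with Benjamini-Hochberg adjustment over all genes, called 5 of the 10 members, 2 higher and 3 lower in stem cells. A call needed an adjusted p under 0.05 and a difference of at least 1 on the scale of log2(CPM + 1), and 45.8% of all tested genes were called. In R9 it called 6 of the 10, 1 higher and 5 lower, beside 36.0% of all tested genes. The share in R10 was close to that of all genes. In bulk RNA, fewer cells that express a gene and less RNA per cell cannot be told apart.

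**Figure D1:**
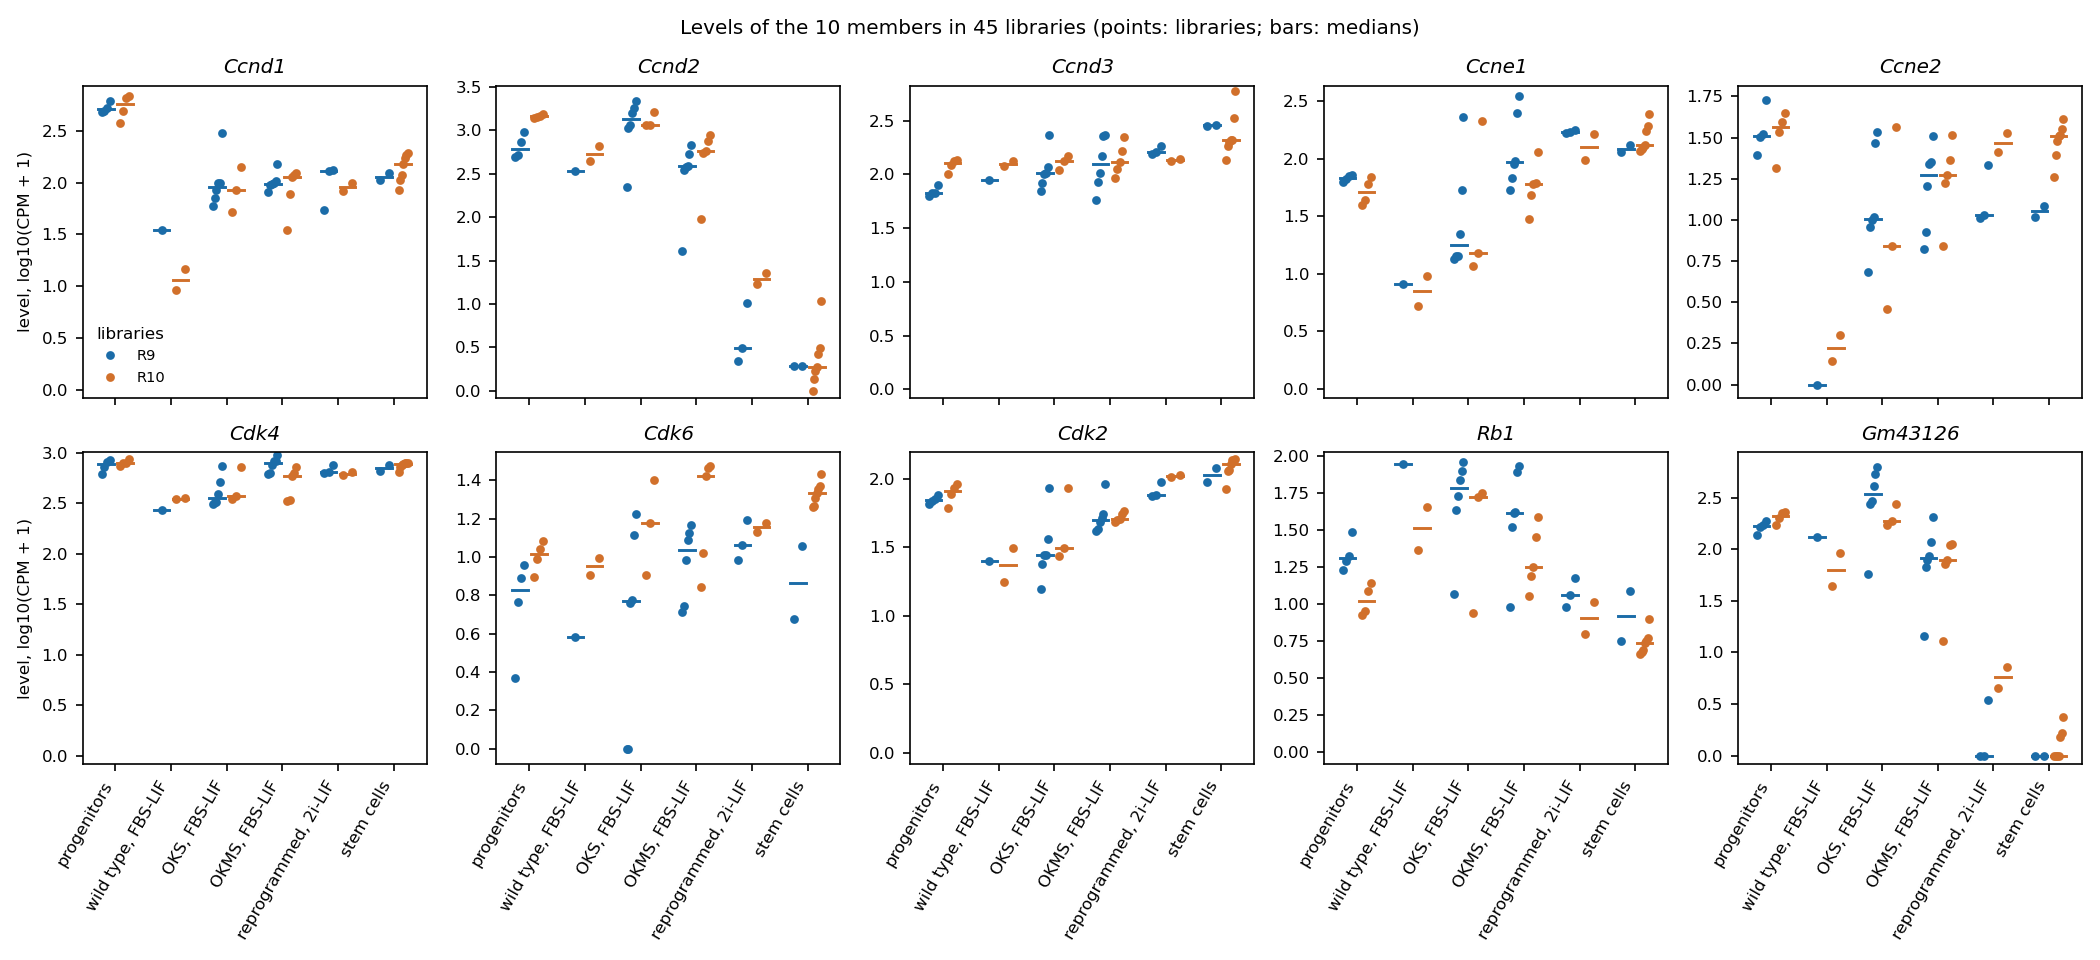
Level of each of the 10 genes in log10(CPM + 1) by cell group, 1 point per library, blue for R9 and orange for R10, with a bar at each median. Ccnd2 and Gm43126 separate progenitors from stem cells by the widest gap, whereas Cdk4 lies between 645 and 860 CPM in the R10 libraries of both.

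Ccnd1 and Ccnd2 were the D-type cyclins that fell. Ccnd1 (7:144929931-144939925, minus strand, GRCm38, GENCODE M21), the D-type cyclin best known as a target of growth factor signals, stood at 379, 500, 654 and 695 CPM in R10 progenitors and at a lowest of 83.7, a median of 151 and a highest of 192 CPM in the 7 R10 stem cell libraries. The groups did not overlap. The difference was -1.96 (SE 0.23, limma adjusted p = 1.57e-06), and in R9 it was -2.21 (SE 0.14, limma adjusted p = 8.92e-05), with 105 and 123 CPM in stem cells and 482 to 622 CPM in progenitors. The wild-type R10 progenitors were the lower ones, at 379 and 500 CPM.

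Ccnd2 (6:127125162-127152193, minus strand), a D-type cyclin needed for the growth of neural progenitors and gonadal cells, was nearly absent from stem cells. Its 4 R10 progenitor libraries lay close together at 1404, 1428, 1474 and 1529 CPM. The stem cell libraries held a lowest of 0, a median of 0.896 and a highest of 9.71 CPM, or 45 reads over all 7, and the highest was the unnumbered R1 library, with the next at 2.08 CPM. The R10 difference was -9.28 (SE 0.46, limma adjusted p = 8.85e-11), and it ranged from -10.09 to -7.09 over 21 other settings. In R9 progenitors Ccnd2 was at 489, 517, 732 and 967 CPM, while each R9 stem cell library held 1 read, 0.931 and 0.947 CPM. The R9 difference was -8.39 (SE 0.29, limma adjusted p = 2.26e-05).

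Ccnd3 (17:47505051-47599691, plus strand), the D-type cyclin best known from lymphoid cells, went the other way. In R9 it rose to 286 ± 5.83 CPM (SD, n = 2) from 67.8 ± 7.15 CPM (SD, n = 4), a difference of 2.07 (SE 0.13, limma adjusted p = 9.38e-05). The R10 progenitors stood at 101, 121, 133 and 135 CPM, and the stem cells at a lowest of 136, a median of 209 and a highest of 593 CPM. The R10 groups did not overlap, yet the difference of 0.97 (SE 0.29, limma adjusted p = 0.00796) fell short of the size needed for a call. Ccnd3 was called in 9 of 21 other settings, among them edgeR (1.19) and DESeq2 (1.21), and against the unnumbered R1 library alone the difference was 2.28. The unequal size in the 2 chemistries, -1.10 (SE 0.43) for R10 minus R9, did not pass limma's interaction test (adjusted p = 0.147), and without that R1 library it did, at -1.32 (adjusted p = 0.00514).

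To set genes beside each other per length, the TPM of each gene's transcripts were summed. This gives short transcripts more weight than reads do, and the order of genes by reads can differ. In R9 progenitors the mean was 532 CPM for Ccnd1 and 676 CPM for Ccnd2. In R10 stem cells it was 144 CPM for Ccnd1 and 266 CPM for Ccnd3. In R10 progenitors the D-type cyclins summed to 1410 to 2191 TPM, of which Ccnd2 held 45.1 to 65.5%, Ccnd1 30.4 to 53.1% and Ccnd3 1.84 to 4.08%. In R10 stem cells the sum was 163 to 309 TPM, and at most 1.41% of it was Ccnd2. Ccnd1 made up 28.8 to 67.1% there and Ccnd3 32.1 to 70.7%. In R9 progenitors Ccnd1 had the larger median share, 56.1% (45.2 to 61.6%) beside 40.0% (35.6 to 52.1%) for Ccnd2, whereas in R10 progenitors the medians were 41.8% for Ccnd1 and 54.9% for Ccnd2. The ranges of these 2 genes overlapped in both chemistries. Sums and shares, here and below, count coding and noncoding transcripts alike. Transcripts classed as coding held 17.1% of the pooled Ccnd1 TPM and 82.3% of the pooled Ccnd2 TPM in R10 progenitors. In R9 progenitors they held 21.7% and 65.2%. Most of the Ccnd1 TPM was thus in transcripts classed as noncoding, among them a short piece at the 3′ end described below. Whether such pieces are parts of the coding mRNA was not tested. The larger Ccnd1 share in R9 need not hold for coding transcripts. Ccnd3 held 2.69 to 4.14% in R9 progenitors. In R9 stem cells Ccnd2 held 0 to 1.00%, Ccnd1 38.8 to 42.3% and Ccnd3 57.7 to 60.2%. Stem cells therefore held a smaller pool of D-type TPM, coding and noncoding, split between Ccnd1 and Ccnd3. The shares of these 2 genes overlapped among the R10 stem cell libraries. Coding transcripts held 42.3% of the pooled Ccnd1 TPM and 90.7% of the pooled Ccnd3 TPM there, so the split need not hold for them.

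**Figure D2:**
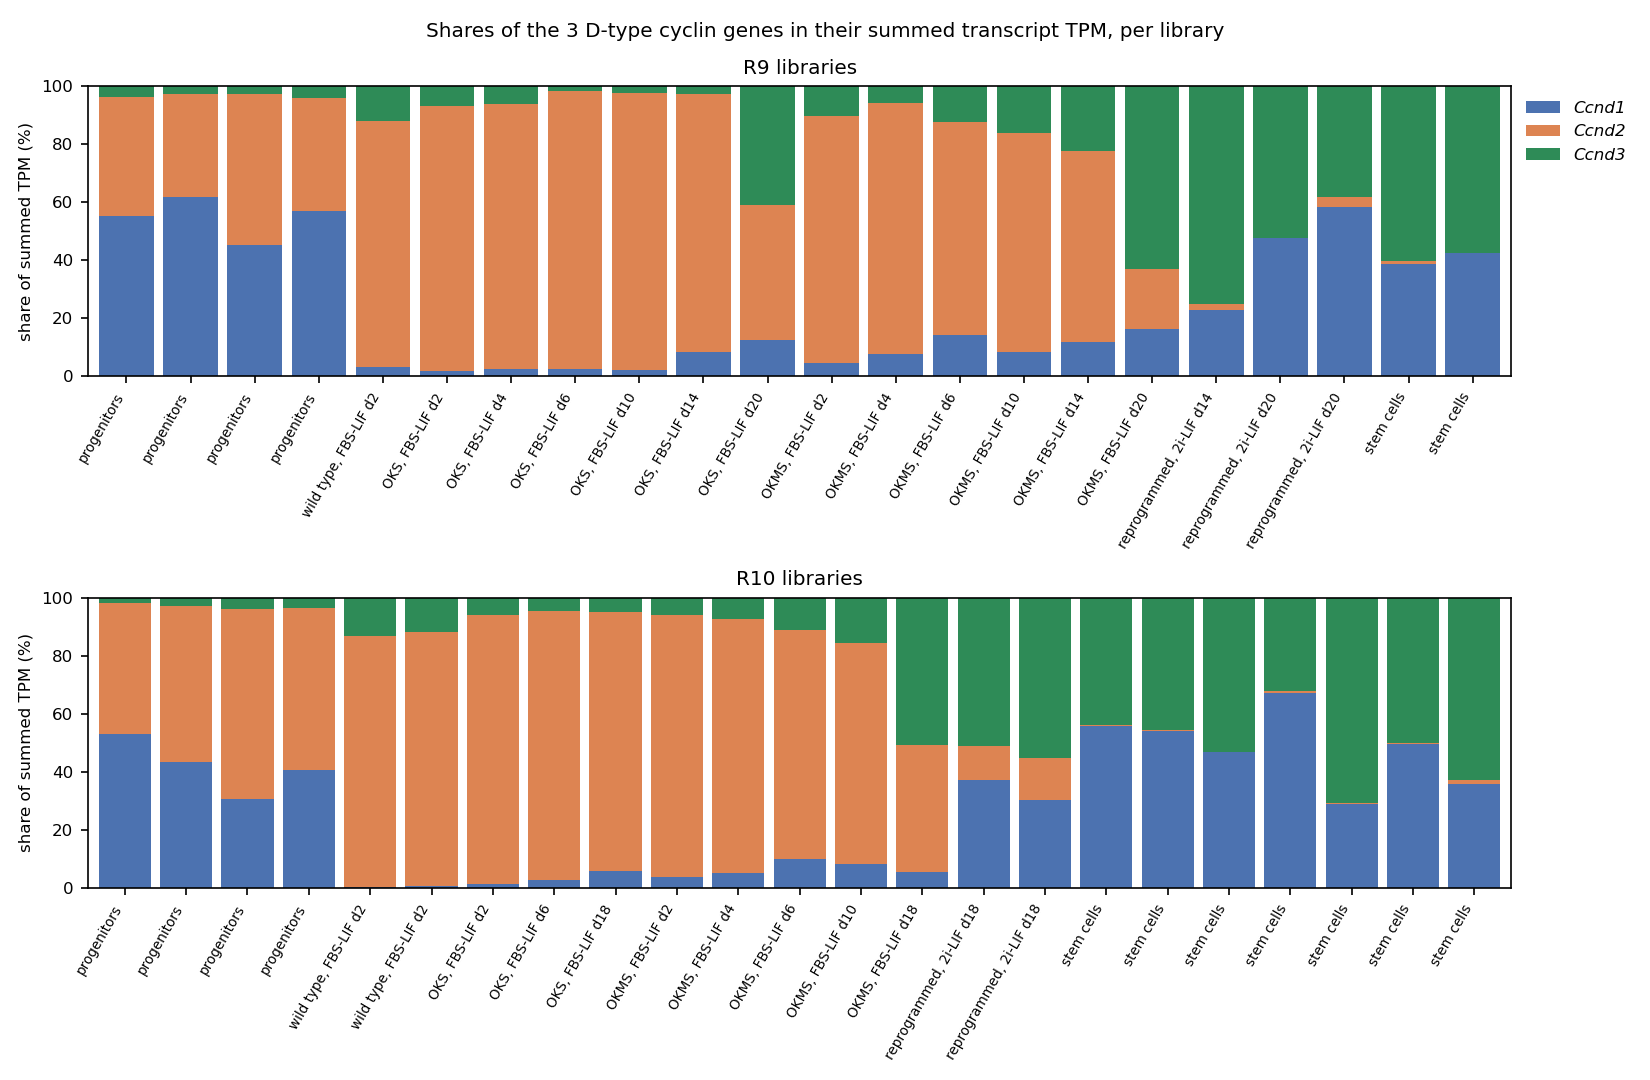
Share of the summed TPM of Ccnd1, Ccnd2 and Ccnd3 held by each gene, in percent, 1 stacked bar per library, with R9 and R10 apart. Coding and noncoding transcripts are counted together. Ccnd2 fills 45.1 to 65.5% of the bars of R10 progenitors, 86.6 to 92.7% of the R10 bars of wild-type, OKMS and OKS cells at day 2 and at most 1.41% of the R10 stem cell bars.

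Of the E-type cyclins, Ccne1 was called higher in R10 and Ccne2 lower in R9. Ccne1 (7:38097984-38107534, minus strand), the main activator of Cdk2 at S-phase entry, was at 38.4, 42.8, 58.9 and 68.9 CPM in R10 progenitors. In R10 stem cells it was at a lowest of 116, a median of 131 and a highest of 244 CPM, above every progenitor library. The difference was 1.57 (SE 0.21, limma adjusted p = 9.34e-06). In R9 the levels were 62.4 to 70.7 and 114 to 131 CPM, and the difference of 0.85 (SE 0.13, limma adjusted p = 0.00238) was too small for a call. Ccne2 (4:11191351-11204779, plus strand), the second E-type cyclin, overlapped between the groups in R10, at 19.7 to 43.5 CPM in progenitors and 17.2 to 39.9 CPM in stem cells (-0.16, SE 0.24, limma adjusted p = 0.564). In R9 it fell from 34.7 ± 12.3 (SD, n = 4) to 10.3 ± 1.20 CPM (SD, n = 2), a difference of -1.60 (SE 0.33, limma adjusted p = 0.00844), a call lost when either R9 stem cell library was left out (adjusted p = 0.109 and 0.0836). The R10 and R9 differences of Ccne2 differed by 1.45 (SE 0.41), which missed the threshold in limma's interaction test (adjusted p = 0.0526) and passed it in 5 of 24 other settings. Per length, Ccne1 made up 28.2 to 50.6% of the E-type TPM in R10 progenitors and 43.4 to 78.3% in R10 stem cells, within sums of 28.5 to 62.2 and 71.9 to 206 TPM. Coding transcripts held 59.5% of the pooled Ccne2 TPM in R10 progenitors and 25.6% in R10 stem cells. For Ccne1 they held 100% and 91.0%. The E-type shares thus include noncoding Ccne2 pieces and need not hold for coding transcripts.

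Cdk4 and Cdk6 are the catalytic partners of the D-type cyclins. Cdk4 (10:127063534-127067920, plus strand) was at 735, 785, 794 and 860 CPM in R10 progenitors and at a lowest of 645, a median of 766 and a highest of 784 CPM in stem cells, and the groups overlapped. Neither chemistry called it, with differences of -0.09 (SE 0.09, limma adjusted p = 0.415) in R10 and -0.08 (limma adjusted p = 0.697) in R9. Cdk4 thus kept its level within the spread of the libraries while the D-type cyclin sum was far lower. Cdk6 (5:3341485-3531008, plus strand) rested on 96 reads in R10 progenitors and 455 in R10 stem cells. It was at 6.89, 8.79, 9.93 and 11.1 CPM in progenitors and 17.2 to 26.0 CPM in stem cells, which did not overlap. Its R10 difference was 1.09 (SE 0.18, limma adjusted p = 6.04e-05), and the call was lost without wild-type progenitor replicate 3 (0.98) and against the unnumbered R1 library alone (0.85). In R9 Cdk6 rested on 16 reads in progenitors and 15 in stem cells, its groups overlapped (1.35 to 8.02 and 3.72 to 10.4 CPM), and no difference was called (0.40, SE 0.66, limma adjusted p = 0.653). Per length Cdk4 held 95.6 to 96.9% of the summed Cdk4 and Cdk6 TPM in R10 progenitors and 97.5 to 99.0% in R10 stem cells. This direction was opposite to that of the Cdk6 CPM, and the Cdk6 transcripts described below differ in length.

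Cdk2 (10:128697939-128705031, minus strand), the kinase of the E-type cyclins, was at 60.8, 76.0, 84.5 and 90.7 CPM in R10 progenitors. The R10 stem cells reached a lowest of 83.3, a median of 127 and a highest of 140 CPM, and the lowest, the unnumbered R1 library, lay inside the progenitor range. The difference of 0.63 (SE 0.16, limma adjusted p = 0.00197) was under the size for a call, and the R9 difference was 0.61 (SE 0.15, limma adjusted p = 0.0162) with groups that did not overlap. Rb1 (14:73183673-73325822, minus strand), whose protein holds E2F in check, rested on 103 reads in R10 progenitors and 101 in R10 stem cells. It was at 7.47, 7.94, 11.2 and 12.9 CPM in R10 progenitors and at a lowest of 3.58, a median of 4.47 and a highest of 6.97 CPM in stem cells. These groups did not overlap, and the difference of -0.95 (SE 0.23, limma adjusted p = 0.00153) was called in 7 of 21 other settings, edgeR (-1.02) and DESeq2 (-1.01) among them. In R9 Rb1 fell from 16.0 to 29.6 CPM in progenitors to 4.65 and 11.4 CPM in stem cells (-1.37, SE 0.40, limma adjusted p = 0.0332), a call lost in 7 of 14 other settings.

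**Figure D3:**
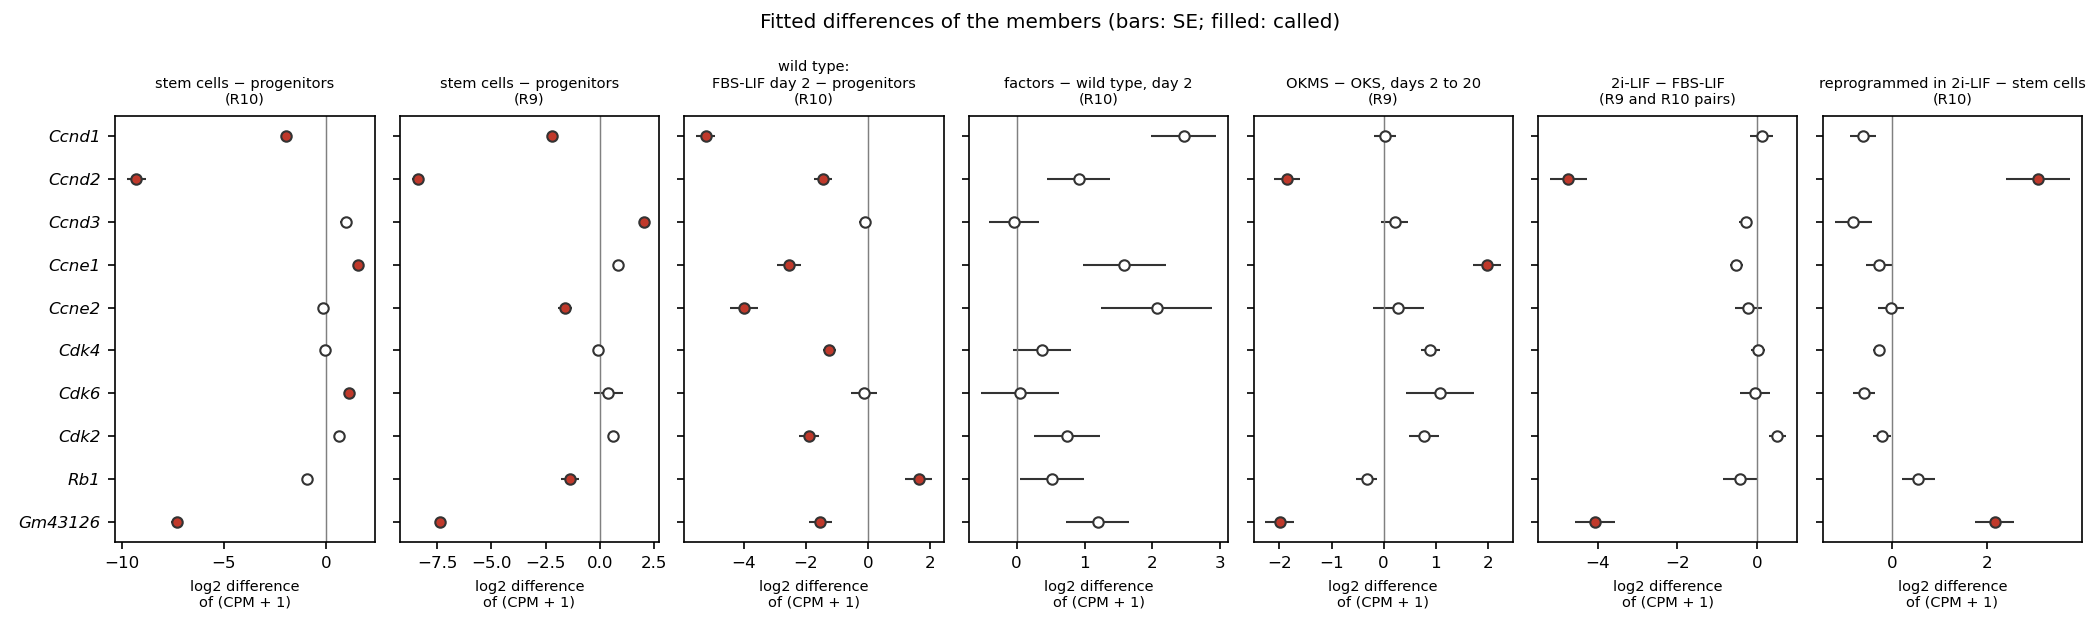
Log2 difference on the scale of log2(CPM + 1) for the 10 genes in 7 comparisons, 1 panel each, with bars of 1 SE. Filled points were called; Ccnd2 is called in 6 of the 7 panels and is lower in 5 of them.

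The other genes of the G1 to S pathway were taken from a list of 31 inhibitors, pocket proteins, E2F factors, later cyclins and regulators, all of which were tested. In R10, 1 was higher and 6 were lower in stem cells, with a median difference of -0.11 beside 0.01 for all genes. Fbxo5, an inhibitor of the anaphase-promoting complex, rose to 154 ± 25.1 CPM (SD, n = 7) from 57.5 ± 9.43 CPM (SD, n = 4). Of the 7 inhibitors of cyclin-dependent kinases on the list, limma called 2, both lower: Cdkn2c, an inhibitor of Cdk4 and Cdk6, from 21.9 ± 6.52 to 1.19 ± 0.705 CPM (-3.42) and Cdkn1c from 10.5 ± 2.84 to 0.444 ± 0.427 CPM (-3.00). E2f2, an activating E2F, fell by 2.09 and Rbl1, a pocket protein related to Rb1, fell by 1.80. In R9, 6 of the list were higher and 5 lower (median -0.04 beside -0.07 for all genes), with Cdkn1c (-3.32), Cdkn2c (-3.20), Rbl2 (-2.34) and E2f2 (-1.39) lower and Tfdp2 (2.01), Fbxo31 (1.79), E2f1 (1.32) and E2f4 (1.28) higher. Genes of cycling cells (10 genes, such as Mki67 and Top2a) summed to 2723 to 3131 CPM in R10 progenitors and 3924 to 4424 CPM in R10 stem cells, 4 of them called higher and 1 lower. The part of this in the differences of the cyclins was not tested.

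Both chemistries measured the same contrast, and a test of the difference between them called none of the 10 members by limma (3 at an unadjusted p under 0.05), edgeR or DESeq2, beside 3.63% of all genes. Without the unnumbered R1 library limma called 2 members in this test, Ccnd3 (-1.32 in R10 minus R9, adjusted p = 0.00514) and Ccne2 (1.57, adjusted p = 0.0107). In the R10 contrast itself, leaving out that library changed no member's call: limma called Ccnd1 (-1.84), Ccnd2 (-9.65), Gm43126 (-7.25), Ccne1 (1.53) and Cdk6 (1.13). It left Ccnd3 (0.75), Cdk2 (0.72), Rb1 (-0.91), Ccne2 (-0.04) and Cdk4 (-0.10) uncalled. Within the set of R10 libraries without a library name, the unnumbered R1 library is the 1 stem cell library, so its differences from the 4 progenitor libraries have no replicate check and are given as values. They were -2.68 for Ccnd1, -7.09 for Ccnd2, -7.68 for Gm43126, 2.28 for Ccnd3, 1.75 for Ccne1, -0.88 for Ccne2, 0.85 for Cdk6, 0.11 for Cdk2, -1.17 for Rb1 and -0.02 for Cdk4. This library was the highest of the 7 for Ccnd2 and Ccnd3, and a difference between the sets was not tested.

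Long reads assign whole transcripts, so the members' 376 transcripts were followed in R10. Of the 104 that could be tested, limma called 13 higher in stem cells and 40 lower, on the log2(TPM + 1) scale, beside 39.8% of all tested transcripts. All 20 tested transcripts of Ccnd2, 13 of 18 of Ccnd1 and all 3 of Gm43126 were lower, and 4 of 9 of Ccnd3 and 4 of 6 of Ccne1 were higher. In R10 stem cell libraries Ccnd2 summed to at most 4.35 TPM and Gm43126 had no TPM. Transcripts of these 2 genes could thus pass the filter, 1 TPM in at least 4 libraries, only with the progenitors. Their direction was largely set by that filter, so their counts add nothing to the gene differences. Transcripts at 0 in all R10 progenitors could pass only with the stem cells, such as the 8-exon Cdk6 and 4-exon Ccnd3 forms below. The counts in both directions are therefore given as a description. The leading Ccnd2 transcript, with 5 exons and an open reading frame of 289 codons per the deposited classification, went from 628 ± 41.9 to 0.724 ± 0.900 TPM and held 66.2% of Ccnd2 in progenitors. It ends at 127130209, well before the annotated end of Ccnd2 at 127125162, and so leaves out most of the annotated 3′ UTR. The 12-exon Ccne1 transcript of 396 codons rose from 6.29 ± 1.43 to 40.8 ± 20.2 TPM (2.31, limma adjusted p = 0.00116; 2.67 without the unnumbered R1 library). That library held it at 7.03 TPM, inside the progenitor range of 4.80 to 8.19 TPM. In R9 the difference of this transcript was 0.58 and was not called (limma adjusted p = 0.607). An 8-exon Cdk6 transcript of 326 codons was at 0 in the 4 progenitor libraries and 2.29 ± 1.02 TPM in stem cells, where it held 34.8% of Cdk6. It passed the filter through the stem cells alone. Its opposite was a 3-exon Cdk6 transcript of 134 codons, which fell from 5.95 ± 3.27 to 1.13 ± 0.986 TPM (-1.66, limma adjusted p = 0.0079), and its R9 difference of -1.08 was not called (limma adjusted p = 0.519). Both forms enter the Cdk6 total. The rise of the longer one is given as a description, since the filter set its direction. In R10 progenitors the gene rests on 96 reads. For Cdk2 no transcript of 5 tested was called, and the 298-codon and 346-codon forms held 49.1 and 34.9% of Cdk2 in progenitors and 44.2 and 35.9% in stem cells.

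A transcript's share of its gene was tested apart from the gene's level. Of the members' 75 tested transcripts limma called 7 (5 higher, 2 lower), at a limit of 10 percentage points, beside 9.13% of all tested transcripts. In R9 limma called none of 32 tested (3 at an unadjusted p under 0.05), and few of all transcripts, as counted at the end. In Ccnd3 the full-length 5-exon transcript of 292 codons fell from 89.4% to 67.0% of the gene (limma adjusted p = 0.0053). A 4-exon form of 171 codons was at 0 in every R10 progenitor library and held 9.99% in stem cells. It entered the test through the stem cells alone, so its call is given as a description. The full-length 12-exon Ccne2 transcript of 404 codons fell from 20.2% to 3.04%, and a 222-base noncoding piece of 4 exons at the 5′ side rose from 14.5% to 52.0%. In Ccnd1 a 3-exon noncoding form of 754 bases rose from 6.17% to 24.0%. The full-length 8-exon Cdk4 transcript of 303 codons rose from 60.5% to 75.7%. The remaining call was a 6-exon Ccne1 form, at 0 to 16.0% in progenitors and 12.1 to 27.2% in the numbered stem cell libraries. In the unnumbered R1 library it was at 11.4%, inside the progenitor range. Its call was lost in 8 of 12 other settings, and in R9 its share differed by -15.5 points.

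These shares moved with the library set as well. In the unnumbered R1 library, the 3-exon Ccnd1 form held 7.27% of its gene, inside the progenitor range of 4.13 to 7.29% and below the 19.3 to 34.7% of the numbered stem cell libraries. The Cdk4 transcript held 61.98% there, inside the progenitor range of 54.8 to 64.1%, beside 76.1 to 80.5% in the numbered libraries. A 2-exon noncoding Ccnd1 form of 391 bases at the 3′ end, not called by share (limma adjusted p = 0.0655), held 40.7 to 57.2% of Ccnd1 in progenitors, 2.62 to 6.91% in the numbered stem cell libraries and 65.5% in the R1 library. Without that library it was called, at -42.0 points (limma adjusted p = 1.42e-05), and in R9 its share differed by 4.69 points (limma adjusted p = 0.882). The full-length Ccne2 transcript held 15.7% in that library, inside the progenitor range of 15.7 to 37.9%, beside 1.27 to 4.70% in the numbered libraries. The 2 Ccnd3 forms and the 222-base Ccne2 piece lay outside the progenitor ranges there, at 79.99%, 3.52% and 58.2%. Without it the differences were 21.4 points for the 3-exon Ccnd1 form, 17.4 for the Cdk4 form, -28.1 for the full-length Ccnd3 form, -20.8 for the full-length Ccne2 form and 38.5 for the Ccne2 piece, all called by limma. In R9 the share of the Cdk4 form differed by -0.56 points, that of the 3-exon Ccnd1 form by -2.50 points and that of the full-length Ccnd3 form by -5.48 points. The level of the Ccne2 piece, 2.94 higher in R10 stem cells on the log2(TPM + 1) scale, differed by -1.65 in R9 and was not called there (limma adjusted p = 0.610). How the preparation of the libraries bears on these shares was not tested.

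Gm43126 (6:127122966-127126155, plus strand, antisense class in GENCODE M21) overlaps Ccnd2 by 994 bases in the annotation. The deposited 8 transcripts of Gm43126 run from 127125162 to 127130315. They reach further into Ccnd2 and leave out the annotated part of Gm43126 outside Ccnd2. Each of their 5005 exonic bases is also exonic in Ccnd2, within its UTR. In counts of called members Gm43126 may therefore repeat Ccnd2. Whether the authors' counting used strand is not stated, so reads of the 2 genes may not be told apart, and each Gm43126 value is uncertain. Gm43126 was at 169, 199, 223 and 228 CPM in R10 progenitors, and 7 reads fell on it over the 7 R10 stem cell libraries. In R9 it was at 137 to 188 CPM in progenitors and had no read in either stem cell library, which makes it at least 117-fold lower against a floor of 3 reads over the arm. Its R10 difference was -7.31 (SE 0.26, limma adjusted p = 2.82e-12).

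For each 100 Ccnd2 reads, R10 progenitors held 11.1 to 15.6 Gm43126 reads, OKMS cells in FBS-LIF 12.1 to 14.4, OKS cells in FBS-LIF 14.8 to 16.7 and the wild-type medium controls 9.74 and 13.8. R9 progenitors held 17.6 to 36.5, OKMS cells 18.7 to 34.4, OKS cells 17.2 to 35.8 and the wild-type control 38.3. The R9 ratios thus spread more widely than the R10 ratios and lay above them. Over the libraries the 2 genes correlated with Pearson's r of 0.977 in R9 (n = 22) and 0.982 in R10 (n = 23), the highest value for Ccnd2 among 8893 genes compared. These points share their cell states, and reads at shared bases could enter both genes. The unnumbered R1 library had Ccnd2 at 9.71 CPM and Gm43126 at 0. The 36 Ccnd2 transcripts that share at least 100 exonic bases with the 2 leading Gm43126 transcripts held 4.59 to 10.4% of Ccnd2 TPM in R10 progenitors and 6.45 to 19.6% in R9 progenitors.

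**Figure D4:**
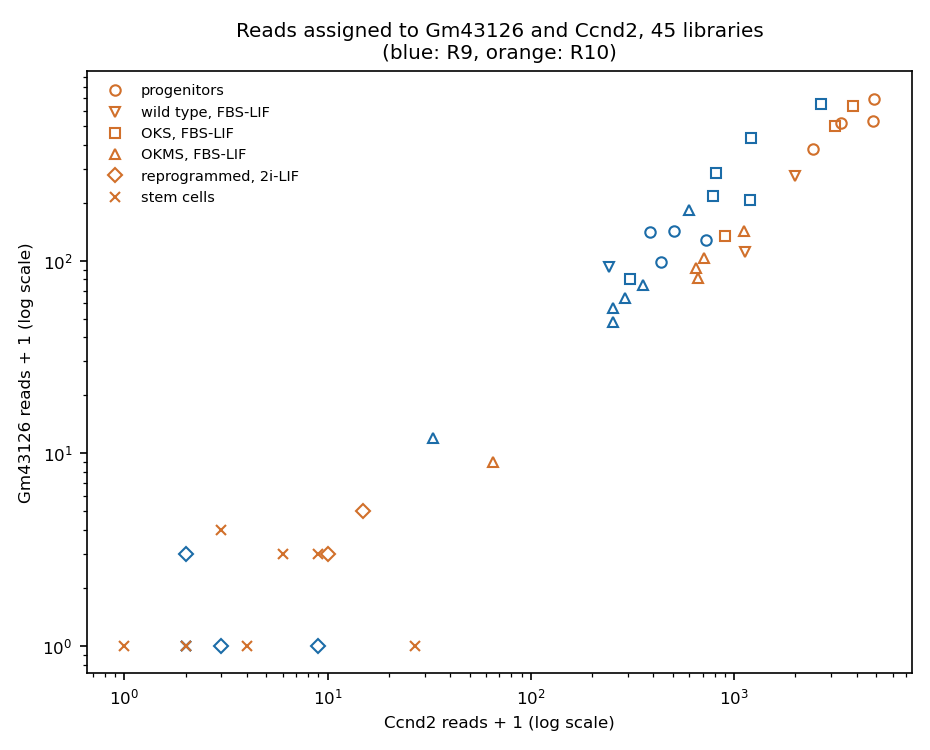
Reads of Gm43126 against reads of Ccnd2, each plus 1, on log axes, 1 point per library for all 45 libraries. The points follow a line at 9.74 to 16.7 Gm43126 reads per 100 Ccnd2 reads in the R10 libraries of progenitors and FBS-LIF cells, and the R9 libraries lie higher, at 17.2 to 38.3.

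The medium control asked what serum medium and doxycycline do without factors. After 2 days in R10, 8 of the 10 members were called between wild-type cells and wild-type progenitors, 1 higher and 7 lower, beside 26.8% of all tested genes. Ccnd1 fell furthest, from 379 and 500 CPM to 8.22 and 13.5 CPM (-5.24, SE 0.31, limma adjusted p = 0.00122). Ccne2 fell from 19.7 and 33.0 to 0.391 and 0.988 CPM, which rests on 4 reads (-4.00, SE 0.46, limma adjusted p = 0.00397), and Ccne1 from 38.4 and 42.8 to 8.61 and 4.28 CPM (-2.54, SE 0.40, limma adjusted p = 0.00932). Members of both cyclin families were thus lower, and so were Cdk4 and Cdk2. Cdk4 fell from 794 and 860 to 351 and 347 CPM (-1.24, SE 0.21, limma adjusted p = 0.0115). Cdk2 fell from 84.5 and 90.7 to 30.5 and 16.8 CPM (-1.90, SE 0.33, limma adjusted p = 0.0125).

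Ccnd2 fell from 1529 and 1404 to 442 and 656 CPM (-1.44, SE 0.28, limma adjusted p = 0.0176), and Gm43126 from 169 and 199 to 43.1 and 90.3 CPM (-1.54, SE 0.37, limma adjusted p = 0.0317). Rb1 was the member that rose, from 7.94 and 11.2 to 44.2 and 22.4 CPM (1.64, SE 0.43, limma adjusted p = 0.0383). Ccnd3 (118 and 133 CPM after 135 and 133 CPM; -0.09) and Cdk6 (-0.13) were not called. With 2 libraries on each side the groups overlapped for Cdk6 and for no other member, the uncalled Ccnd3 included. Non-overlap thus does not set the called members apart, and its share over all genes was not counted. Per length, the D-type pool of the controls was 406 to 509 TPM and 86.6 to 87.6% of it was Ccnd2, while Ccnd1 had shrunk to 0.203 to 0.651%. In the single wild-type R9 library at day 2, Ccnd1 was at 34.0, Ccne1 at 7.07, Cdk4 at 270 and Rb1 at 87.7 CPM, and Ccne2 had no read, at least 8.18-fold below the R9 progenitor mean.

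Of the pathway list, 16 genes were lower and 1 higher in the medium control, with a median of -1.02 beside 0.12 for all genes. Ccna2, the S-phase cyclin, fell from 108 ± 4.63 to 4.16 ± 0.759 CPM (SD, n = 2 each), and Cdk1, the mitotic kinase, from 429 ± 34.1 to 20.8 ± 5.57 CPM. Fbxo5 (-4.42) and E2f8 (-3.49), an E2F target and repressor, were lower too, and Cdkn2b, an inhibitor of Cdk4 and Cdk6, rose from 13.0 ± 0.350 to 45.6 ± 26.8 CPM. All 10 genes of cycling cells were lower, Ube2c (-6.93), Pclaf (-6.55), Mki67 (-6.41) and Birc5 (-6.32) most, and their sum went from 2886 and 3131 CPM to 61.3 and 80.3 CPM. Of the 4 astrocyte markers 2 were called higher, Gfap (8.12) and Aqp4 (4.82), and Slc1a3 (0.63) and Aldh1l1 (-0.29) were not called. Gfap, at 5.16 and 5.72 CPM before and 1056 and 3015 CPM after, made up most of their sum, which was 124 and 187 CPM before and 1310 and 3270 CPM after. Of 4 tested neural progenitor markers 2 were lower, Olig2 (-4.62) and Nes (-1.47), with sums of 3911 and 5093 CPM in the wild-type progenitors and 2317 and 4976 CPM in the controls. Of 3 tested neuron markers 1 was higher (Tubb3, 1.54), and of 4 tested stem cell markers 1 was lower (Esrrb, -1.55). The 4 fibroblast markers summed to 1.27 and 9.76 CPM in the wild-type progenitors and to 14.9 and 66.2 CPM in the controls, with Col1a2 at 0 in both, and limma called 1 of the 2 tested higher (median 2.70). In R9 their sum was 10.6 and 32.1 CPM in wild-type progenitors and 126 CPM in the control. The part of these shifts in the fall of the cyclins was not tested. The R10 calls rest on 4 libraries: without either progenitor library or the day 2 replicate 2 limma called no member (5 to 7 at an unadjusted p under 0.05), without the day 2 replicate 3 only 1 (Ccnd1, -5.56), and the R9 libraries called 2.

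The comparison of factor-carrying cells with these controls on the same day asked what the factors add. OKMS and OKS cells at day 2 in R10 (n = 2) were set against the 2 wild-type libraries at day 2. Their mitochondrial shares were 1.51 and 1.64% beside 0.319 and 0.165% in wild type. This split and the factors cannot be told apart here. limma called none of the 10 members, beside 0.740% of all genes, while 4 had an unadjusted p under 0.05. edgeR and DESeq2 called 1 each, Ccnd1. Ccnd1 stood at 77.5 CPM in OKMS and 50.8 CPM in OKS cells, above the 8.22 and 13.5 CPM of the controls (2.46, SE 0.48, limma adjusted p = 0.0532). Ccne1 was at 29.2 and 14.2 CPM beside 8.61 and 4.28 CPM, and Ccne2 at 15.8 and 1.87 CPM beside 0.391 and 0.988 CPM. The OKMS library was the higher of the pair for both E-type cyclins and for Cdk4 (585 and 347 CPM beside 351 and 347 CPM), and the OKS library for Ccnd2 (1163 and 884 CPM beside 442 and 656 CPM). The genes of cycling cells summed to 1899 CPM in OKMS and 368 CPM in OKS cells and to 61.3 and 80.3 CPM in the controls, and 5 of the 10 were called higher, Pclaf (4.74), Birc5 (4.43), Mki67 (4.30) and Ube2c (4.24) most. From the pathway list Rbl1 rose from 0.917 ± 0.365 to 18.8 ± 1.31 CPM and no other gene was called. Of the tested cell type markers 1 was called, Pou5f1 (5.91), which is itself among the reprogramming factors.

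The R9 time course followed both systems from uninduced progenitors (day 0) to day 20. limma's F test over the 6 days, with the system as an additive term, called 5 of the 10 members, beside 10.7% of all genes. By the largest difference from day 0, Ccne1 (at day 20) and Rb1 (at day 2) were higher and Ccnd1, Ccnd2 and Gm43126 lower. Day 0 is also the start of the change of medium, so medium and factors cannot be told apart in this comparison.

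**Figure D5:**
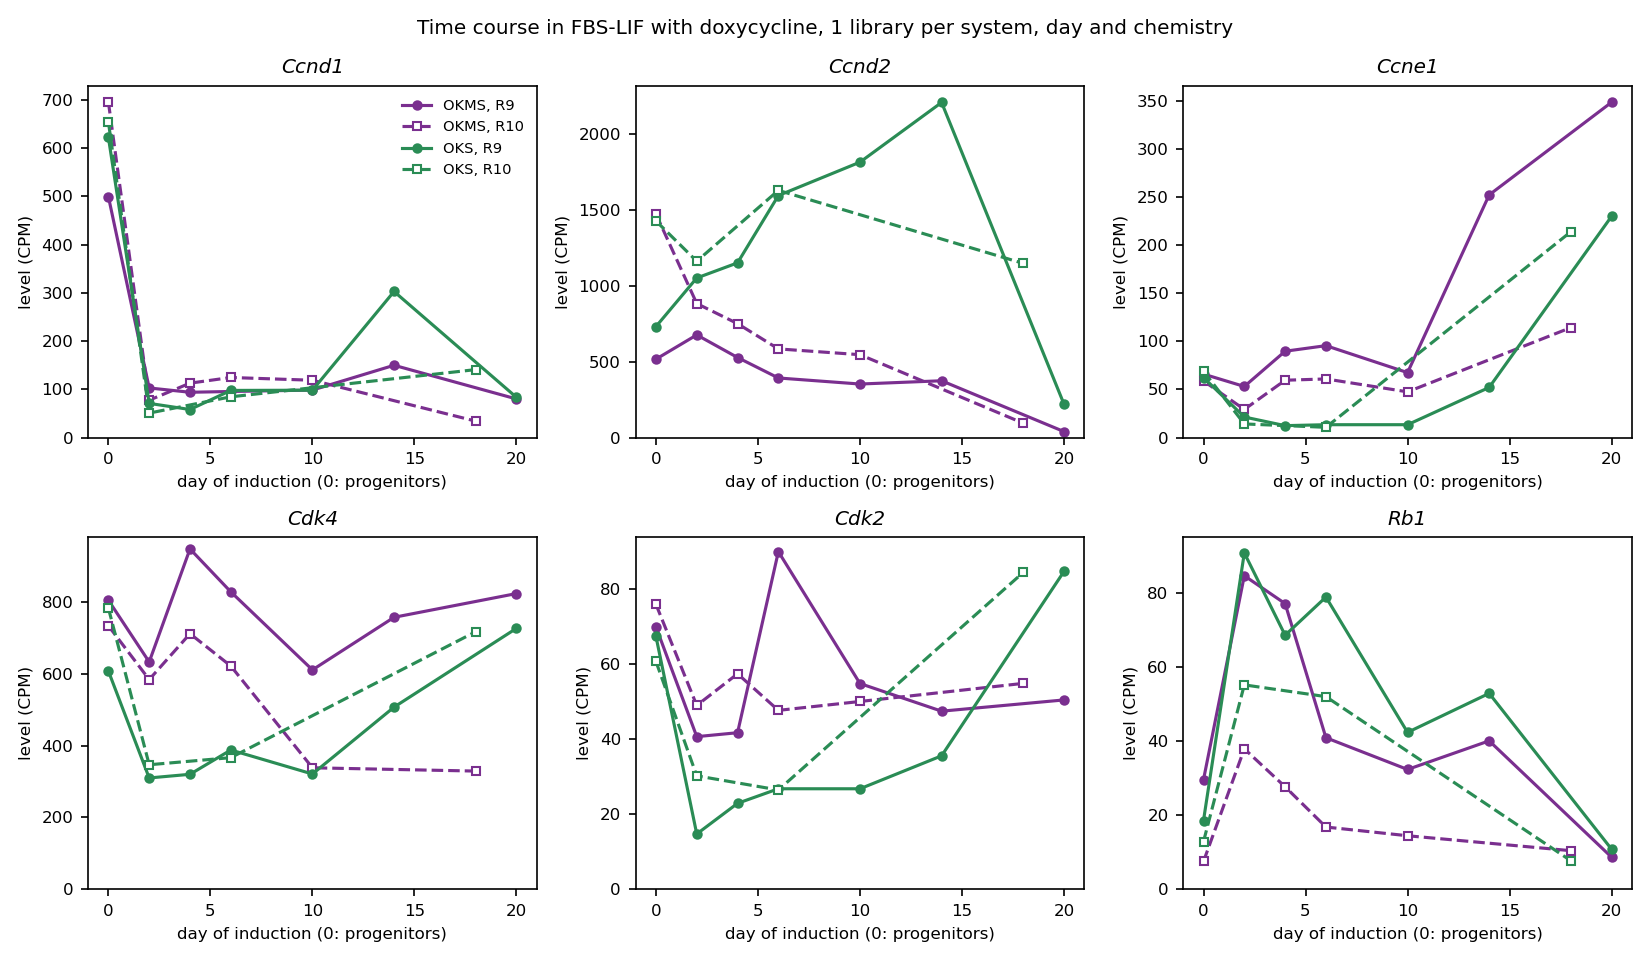
CPM of Ccnd1, Ccnd2, Ccne1, Cdk4, Cdk2 and Rb1 against day for OKMS and OKS cells, solid lines for R9 and dashed lines for R10, 1 library per point. Ccnd2 in OKS cells climbs to 2209 CPM at day 14 in R9 and is at 220 CPM at day 20, while OKMS cells go from 677 CPM at day 2 to 39.4 CPM at day 20.

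Ccnd1 was low from the first sampled day. It started at 499 (OKMS) and 622 CPM (OKS) and was at 103 and 70.9 CPM by day 2, a difference of -2.69 (SE 0.36, limma adjusted p = 0.00134 for that day). It stayed between 58.2 and 150 CPM in both systems at the later days, with the OKS library of day 14, at 303 CPM, as the exception. Ccnd2 instead differed from day 0 by 0.34 to 0.56 at days 2 to 14 (limma adjusted p from 0.628 to 0.839) and fell at day 20 (-2.71, SE 0.50, limma adjusted p = 0.00413). In OKMS cells it was at 517 CPM at day 0 and then at 677, 528, 393, 353, 375 and 39.4 CPM from day 2 to day 20. In OKS cells it was at 732 CPM at day 0 and then at 1052, 1152, 1596, 1816, 2209 and 220 CPM. The OKS values thus climbed to day 14 while the OKMS values did not, and both ended lowest at day 20. Gm43126 was lowest at day 20 as well, at 13.5 and 56.8 CPM (-2.61, SE 0.64), and its call was lost in 6 of 13 other settings.

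Ccne1 rose at day 20. It was at 66.0 and 62.4 CPM at day 0. In OKS cells it lay at 12.4 to 21.4 CPM from day 2 to day 10, then at 52.1 CPM at day 14 and 230 CPM at day 20. In OKMS cells it lay at 53.1 to 95.5 CPM up to day 10, then at 252 and 348 CPM. Over both systems the differences of days 2 to 10 were -1.05 to -0.81 and not called (limma adjusted p from 0.362 to 0.584). The day 20 difference was 2.12 (SE 0.59, limma adjusted p = 0.0289). Rb1 rose early, from 29.6 and 18.5 CPM to 84.8 and 90.9 CPM at day 2 (1.86, SE 0.38), and was at 8.62 and 10.8 CPM at day 20 (-1.20; limma adjusted p of the F test 0.00309). Its largest difference was thus the early rise, and the wild-type cells without factors also had high Rb1 at day 2, at 87.7 CPM in R9. Ccnd3 was not called over the course (limma adjusted p of the F test 0.125), although its day 20 values of 233 and 231 CPM were the highest of each system (1.68, SE 0.44, limma adjusted p = 0.0222 for that day), and it was called in 3 of 13 other settings. Ccne2, Cdk4, Cdk6 and Cdk2 were not called, with limma adjusted p of the F test of 0.564, 0.391, 0.771 and 0.280. edgeR called 8 of the 10 members, and without day 20 limma called 1. Over the R10 libraries of days 0, 2, 6 and 18 limma called 1 member, beside 1580 genes in all. It was Ccnd1 (-3.26 at day 18, adjusted p of the F test 0.0404). The R10 day 18 differences of Ccne1 (1.28, adjusted p of limma's F test 0.0904), Ccnd2 (-2.13, 0.267), Gm43126 (-2.27, 0.236) and Rb1 (-0.12, 0.0673) were not called. Among induced R10 cells in FBS-LIF, Rb1 was highest at day 2, at 37.9 CPM in OKMS and 55.2 CPM in OKS cells. The mean was 9.86 CPM in R10 progenitors and 33.3 CPM in the R10 wild-type cells at day 2.

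From the pathway list the course called Cdkn2b, E2f4 and Cdkn1b with their largest difference upward (2.18, 1.74 and 1.32) and Cdkn2c (-4.37) and Cdkn2a (-1.96), inhibitors of Cdk4 and Cdk6, downward. Of the genes of cycling cells Mcm2 (-1.59) was called. Their sum was 1527 to 3408 CPM in R9 OKMS cells in FBS-LIF and 439 to 3221 CPM in OKS cells, with an OKS median of 531 CPM. Cell type markers moved over the same course. Of the 5 stem cell markers 4 were called, all higher (median difference 8.65 at day 20), and their sum was 10.8 to 21.9 CPM in R9 progenitors and reached 9174 CPM in OKMS and 7444 CPM in OKS cells. Of the 5 neural progenitor markers 4 were called, all lower (median -3.79 at day 20), from a sum of 3186 to 5593 CPM in R9 progenitors to a lowest of 18.5 CPM in OKMS and 48.1 CPM in OKS cells. By the largest difference from day 0, Gfap was higher and Slc1a3 lower among 4 astrocyte markers, Tubb3 higher and Map2 lower among 3 tested neuron markers, and Col1a1 higher among 4 fibroblast markers. The part of these markers' cells in the cyclin course was not tested.

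The systems were compared over the 6 days that R9 sampled in both, with day as a block. Each day gave 1 library per system, so the SD, SE and p below measure spread over days. The factor set and the cell line cannot be told apart. limma called 3 members, beside 18% of all genes. Ccnd2 was lower in OKMS cells in 6 of 6 pairs, at 394 ± 212 CPM beside 1341 ± 696 CPM (SD, n = 6; -1.86, SE 0.24, limma adjusted p = 0.000811). Gm43126 was lower in 6 of 6 as well (94.6 ± 64.5 and 367 ± 206 CPM; -1.99, SE 0.28, limma adjusted p = 0.000933). Ccne1 was higher in OKMS cells in 6 of 6 pairs, at 151 ± 121 CPM beside 57.1 ± 86.0 CPM (1.98, SE 0.27, limma adjusted p = 0.000888). On the log2(CPM + 1) scale the widest Ccne1 gap was 2.76 at day 4, at 89.7 and 12.4 CPM, and the narrowest 0.60 at day 20, at 348 and 230 CPM. The pooled groups overlapped for each of the 10 genes, since the days differ.

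Cdk4, whose window with 4 CACGTG words is printed above, was higher in OKMS cells in 6 of 6 R9 pairs without reaching the size for a call. It was at 634 and 310 CPM at day 2, 949 and 320 CPM at day 4, 830 and 388 CPM at day 6, 612 and 321 CPM at day 10, 759 and 508 CPM at day 14 and 825 and 728 CPM at day 20. The gap was widest at day 4 and narrowest at day 20, and the mean difference was 0.90 (SE 0.18, limma adjusted p = 0.00420), called after median centring (1.05) and without day 20 (1.04). Cdk6, with 1 such word, was higher in 3 of 6 pairs (1.07, SE 0.66, limma adjusted p = 0.239), and 2 of its OKS libraries held no Cdk6 read. Cdk2, with none in its window, was higher in 5 of 6 pairs (0.77, SE 0.29, limma adjusted p = 0.0592). Ccne1, also with none, had the called difference of 1.98 given above, and Ccnd3, with none in either of its 2 windows, differed by 0.21. Without day 20 limma called 5 members, with Cdk4 (1.04) and Cdk2 (1.08) in addition. Ccnd1 (0.02), Ccnd3, Ccne2 (0.28) and Rb1 (-0.32) were not called. No window was matched for Ccnd1, Ccnd2, Ccne2, Rb1 or Gm43126. Whether the word has a part in these differences was not tested.

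Other genes moved between the systems too. Of the genes of cycling cells 8 of 10 were higher in OKMS cells, with a median of 1.55 beside -0.11 for all genes, Ccnb1 (2.01), Birc5 (1.72), Mcm5 (1.72) and Ube2c (1.64) most. Of the pathway list 6 were higher, among them E2f2 (2.11), Skp2 (1.72), Fbxo5 (1.71) and Cks1b (1.35), and 4 lower. The lower ones were the inhibitors Cdkn2c (22.2 ± 26.0 beside 101 ± 52.4 CPM, -2.48), Cdkn2b (-1.24) and Cdkn1b (-1.09) and the pocket protein Rbl2 (-1.17). Stem cell markers were higher in OKMS cells for 3 of 5 (median 3.15), with a sum of 63.3 to 9174 CPM (median 2938) beside 49.1 to 7444 CPM (median 93.0) in OKS cells. Lower in OKMS cells were 2 of 4 tested neural progenitor markers (sums of 18.5 to 2259 and 48.1 to 4414 CPM), 3 of 4 astrocyte markers (9.50 to 220 and 20.8 to 333 CPM) and 1 of 2 tested fibroblast markers (8.62 to 66.7 and 40.2 to 129 CPM). Of 2 tested neuron markers 1 was higher and 1 lower. The part of cycling and of these cell states in the cyclin differences was not tested. In R10, where the systems share days 2, 6 and 18, limma called no gene of all tested over 3 pairs. It thus called no member either (2 at an unadjusted p under 0.05). Ccnd2 was lower in OKMS cells in all 3, at 884 and 1163 CPM, 585 and 1630 CPM, and 95.0 and 1149 CPM. For Cdk4 and Ccne1 the day 18 pair went the other way, with Cdk4 at 329 CPM in OKMS and 718 CPM in OKS cells and Ccne1 at 114 and 214 CPM.

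The change to 2i-LIF was followed in 5 pairs of the same chemistry, system and day. The FBS-LIF libraries had doxycycline, so the medium and any change of doxycycline cannot be told apart in these pairs. limma called 2 members, both lower in 2i-LIF, beside 12.3% of all genes. Ccnd2 was lower in 5 of 5 pairs, at 1.22, 2.15 and 9.31 CPM in the R9 libraries and 15.9 and 21.9 CPM in the R10 libraries. The matching FBS-LIF libraries held 375, 39.4, 220, 95.0 and 1149 CPM. The difference was -4.73 (SE 0.46, limma adjusted p = 2.79e-06). Gm43126 was lower in 5 of 5 as well (2.45 ± 2.63 and 66.1 ± 64.8 CPM, SD, n = 5; -4.06, SE 0.50, limma adjusted p = 3.29e-05). Ccne1 was lower in 5 of 5 pairs by less than the size for a call (155 ± 32.7 and 232 ± 83.9 CPM; -0.52, SE 0.16, limma adjusted p = 0.0393). The kinases were not called, Cdk2 being higher in 4 of 5 pairs (0.51, SE 0.20, limma adjusted p = 0.107). From the pathway list Cdkn1c (-2.61) and E2f8 (-1.26) were lower in 2i-LIF and none was higher. Of the stem cell markers 3 of 5 were higher in 2i-LIF (median 1.06): Nanog (1204 ± 128 and 262 ± 36.8 CPM, SD, n = 5; 2.20), Zfp42 (1.30) and Esrrb (1.06). Of the tested markers of other cells, Pax6 of 4 neural progenitor markers (-1.93), Slc1a3 of 3 astrocyte markers (-2.79) and Map2 of 2 neuron markers (-2.49) were lower and none was higher. Their part in the Ccnd2 difference was not tested.

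The last comparison set the 2 R10 day 18 libraries in 2i-LIF against the 7 R10 stem cell libraries, which grew in the same medium. limma called 2 members, both higher in the reprogrammed cells, beside 9.06% of all genes. Ccnd2 was at 15.9 and 21.9 CPM beside a highest of 9.71 CPM in stem cells (3.07, SE 0.67, limma adjusted p = 0.0141; 3.43 without the unnumbered R1 library), which rests on 23 reads, and Gm43126 at 3.53 and 6.26 CPM beside a highest of 1.34 CPM (2.15, SE 0.40, limma adjusted p = 0.00719; 2.09 without that library), which rests on 6 reads. Neither overlapped the stem cells, nor did the uncalled Cdk4 and Cdk6, and the share of such genes over all genes was not counted. edgeR called neither, at 3.06 (adjusted p = 0.104) and 3.68 (adjusted p = 0.104), DESeq2 called Gm43126 alone, and the Ccnd2 call was lost without either 2i-LIF library (limma adjusted p = 0.0821 and 0.0973). In R9, with 1.22, 2.15 and 9.31 CPM beside 0.931 and 0.947 CPM in stem cells, the Ccnd2 difference was 1.10 and was not called (limma adjusted p = 0.592). Per length Ccnd2 held 12.0 to 14.6% of the D-type TPM in these cells, beside 0 to 1.41% in stem cells and 0 to 3.52% in the 3 R9 2i-LIF libraries. The neural progenitor markers summed to 5.29 and 59.4 CPM in these libraries, and their part in the Ccnd2 level was not tested. Ccnd1 (-0.61), Ccnd3 (-0.81), Cdk6 (-0.59) and Cdk4 (-0.27) were not called, with limma adjusted p from 0.115 to 0.191. From the pathway list the inhibitors Cdkn1c (2.30) and Cdkn2c (1.61) were higher, the same pair that was lower in stem cells than in progenitors. Comparisons in this account share libraries, such as the progenitors of the stem cell contrast and of the medium control, so their values stand side by side and are not independent.

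The genes most like a cyclin across libraries were named as a description, by the lower of Pearson's r over the 22 R9 and the 23 R10 libraries, whose points share cell states and depth. After Gm43126, those most like Ccnd2 were Sh3bgrl (0.963 and 0.968) and Pxdn (0.966 and 0.962). Ccnd1 was most like Calm2 (0.909 and 0.845), Nsdhl (0.859 and 0.844) and Hsd17b12 (0.840 and 0.864). For Ccnd3 the values were lower, with Trip12 (0.858 and 0.801), Usp48 (0.827 and 0.798) and Bcam (0.822 and 0.752). Ccne1 was most like Nasp (0.950 and 0.959), a histone chaperone, Nup43 (0.942 and 0.939), a nuclear pore protein, and Tipin (0.958 and 0.938), a replication fork protein.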

How the data were processed

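Gene values were CPM and transcript values TPM, deposited by the authors in 2 tables whose names refer to IsoQuant. The submitters' processing notes name minimap2 2.24-r1122 and build mm10. Transcript classes, exon numbers, lengths and reading frames came from the deposited classification table, per the file headers, and transcript positions from the deposited annotation. A further 13 columns of the gene table could be tied to no sample and were not used. Values were whole multiples of 1 read per library (100% of values within 0.02 reads), so whole reads and depth were recovered.

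limma 3.58.1 in R 4.3.3 tested log2(CPM + 1), two-sided, on all genes with at least 1 CPM in as many libraries as the smaller arm. This scale understates the change of low genes. Transcripts (at least 1 TPM in at least 4 libraries) were tested as log2(TPM + 1), and shares in percentage points for genes of at least 5 TPM in every library. edgeR 4.0.16 and DESeq2 1.42.0 on the recovered reads, pseudocount 0.25, other filters, quantile normalization, median centring, other blocks, other arms, the other chemistry and leaving out each library were alternatives, and 1, the numbered stem cells only, was chosen after seeing the data. The tests were also run on simulated data. The text names the 10 members everywhere, up to 4 called genes of each list per direction and comparison, transcripts holding at least 20% of a gene (the 171-codon Ccnd3 form was added after its values were seen), and the 3 genes most like Ccnd1, Ccnd2, Ccnd3 and Ccne1 (mean of at least 10 CPM in both chemistries). Members and lists were chosen with earlier results of these data known.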

Additional observations from a re-analysis of the deposited data

Results flagged for a closer look

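Among the 7 R10 stem cell libraries, 3 members had 1 library whose gap to the others was large for the group's range. Ccnd2 was at 9.71 CPM in the unnumbered R1 library, with the next at 2.08 CPM. Ccnd3 was at 593 CPM in the same library, with the next at 332 CPM. Rb1 was at 6.97 CPM in the second R1-Clone3 library, with the next at 4.93 CPM. Such gaps were looked for in 30 groups, and chance gives about 1 in 20.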

How the results depend on the processing

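Over 1891 values of single genes and transcripts under other settings, 1673 kept direction and side of the threshold, 82 lost a call, 39 gained one, 7 that were called in 1 of the settings compared reversed, and 90 changed sign without being called in either, 82 of them from a reported size under 0.5; of 348 counts, 277 stayed within 1.5 times. The median of all genes moved by over 0.1 under median centring (R10 stem cells minus progenitors 0.23, R9 0.16, medium control -0.15, factors at day 2 -0.20, OKMS minus OKS 0.15), quantile normalization (medium control -0.16, factors -0.15, OKMS minus OKS 0.11), and for the factors under edgeR (-0.11) and DESeq2 (-0.11).

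For the medium control, 3940 genes and 8 members were called, and R9 libraries gave 1562 and 2. The same replicate number does not establish a pairing there, with 2 pairs only (r of the replicate 2 deviations 0.474); with a replicate block 5605 genes and the same number of members, 8, were called. For the factors at day 2 (114 genes, 110 higher and 4 lower) pseudocount 0.25 gave 74, a minimum of 5 CPM 181 with 1 member, quantile normalization 29, median centring 399 (289 higher, 110 lower) with 1 member, edgeR 334 with 1, DESeq2 464 (378 higher, 86 lower) with 1, and R9 libraries 0. For the time course (2078 genes) edgeR gave 4573 with 8 members, 3 higher and 5 lower by the largest difference. It called Ccne2 and Cdk2, uncalled in limma, and their day 20 differences went from -0.067 and -0.069 to 0.078 and 0.147. They count as reversed above by that day alone. In limma their largest differences were -1.82 and -1.45, whose direction was not compared. The R10 days gave 1580 genes and 1 member. For OKMS minus OKS (990 higher, 1577 lower; 1438 and 1234 after median centring) R10 pairs gave 0 genes and 0 members, and no day block 2 and 0. For 2i-LIF minus FBS-LIF (1832) R9 pairs gave 1166 and R10 pairs 188 with 1 member. For reprogrammed cells minus stem cells (680 higher, 758 lower) a minimum of 5 CPM gave 868 with 1 member, edgeR 270 (163 and 107) with 0, DESeq2 453 (357 and 96) with 1 and R9 libraries 110 with 0. For the difference between chemistries (247 higher, 419 lower) edgeR gave 88 (21 and 67), DESeq2 278, and median centring 319 higher and 349 lower; a minimum of 5 CPM, quantile normalization and median centring each gave 1 member. Transcripts numbered 10130 (23 of members) at a minimum of 5 TPM and 2566 (19) in R9, where the 222-base Ccne2 piece (Ccne2.G34834.269, -1.65) and a 6-exon Ccne1 form (Ccne1.G46186.116, -0.88) reversed. Shares numbered 2045 (4) at 20 TPM and 30 (0) in R9, where full-length Cdk4 (Cdk4.G6305.401, -0.56), the same Ccne1 form (Ccne1.G46186.116, -15.46) and the 3-exon Ccnd1 form (Ccnd1.G48868.12, -2.50) reversed. The cause was not tested.

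Leaving out 1 library, day or pair gave 0 to 1141 genes and 0 to 1 members for the medium control, 0 to 115 and 0 to 0 for the factors, 601 to 2423 and 1 to 5 for the time course, 1686 to 3236 and 3 to 5 for OKMS minus OKS, 1210 to 1908 and 2 to 2 for 2i-LIF, 985 to 1992 and 1 to 2 for reprogrammed cells, and 285 to 1708 and 0 to 2 for the chemistries. For stem cells minus progenitors it gave 6943 to 7267 and 5 to 7 in R10, 4038 to 5880 and 4 to 6 in R9, 22143 to 24905 and 51 to 58 for transcripts, and 2824 to 5298 and 6 to 10 for shares. Where an arm kept 1 library, its spread was assumed to be that of the others. Cdk6, Rb1 and the stem cell levels of Ccnd2 rest on few reads.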
